A study of Mus musculus with 8 samples.

Results

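Heat shock and chaperone genes were described in wild-type mouse embryos collected at embryonic day 8.5 (E8.5) and hybridised singly to one-colour Agilent 8x60K arrays. The 10 genes were *Hspa1a*, *Hspa1b*, *Hsph1*, *Dnajb1*, *Hspb1* and *Hsp90aa1*, treated as heat inducible, and *Hsp90ab1*, *Hspa8*, *Hspa5* and *Hspd1*, treated as constitutive. A gene was measured where a non-control probe carried a RefSeq transcript of its symbol. This held for 9 of the 10 genes, with 12 of the 55681 probes on the array, which cover 20660 genes matched to a symbol, and no probe was matched to *Hspa1b*. Whether the *Hspa1a* probe also binds transcripts of this near-identical copy was not tested, so that its values may hold both. All 12 probes passed the filter on dim signal and 0 of them were saturated on any array.

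All 8 embryos were *Eed* wt/wt, of the C57bl6/129 background and from wild-type mothers, whose strain is C57bl6/129 in the labels and another C57 strain in the study's legend. The groups differed in the sire, which was wild-type (*Eed* wt/wt, 4 embryos) or heterozygous (*Eed* hypo/wt, 4 embryos) for *Eed* l7Rn5-1989SB, a hypomorphic allele of the PRC2 subunit EED. Each group held 2 female and 2 male embryos, and the comparison asks whether the father's genotype altered expression in genetically normal offspring. The embryos themselves carried no *Eed* mutation. The labels do not say which of them shared a father or a litter, although 3 embryos of wild-type fathers carry codes with the same first part. The study's legends differ on the number of wild-type males, with 2 in the breeding plan and 4 beside the array comparison. Embryos of a group may therefore share a sire, and p-values measure only the spread between these samples. Each group was hybridised on its own slide, and the effects of slide and sire cannot be told apart.

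Heat shock proteins are molecular chaperones, which hold unfolded proteins, help them to fold and pass failed ones to degradation. In stressed cells heat shock factor HSF1 binds arrays of the inverted pentamer nGAAn in the promoters of inducible genes, and misfolding in the endoplasmic reticulum (ER) acts through other factors on the ER stress element. HSP70 proteins work with J-domain co-chaperones that stimulate their ATPase and with exchange factors that release the client, while HSP90 matures kinases and receptors and the HSP60 barrel folds proteins in mitochondria. Mouse embryos express the constitutive forms throughout development, and the stress-inducible HSP70 genes are among the earliest genes transcribed from the embryonic genome.

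Promoter sequences are shown first because the members differ in how these elements are arranged. Whether the arrangement bears on the signal in these embryos was not tested. RefSeq promoter windows on GRCm38.p6, 250 bases before to 50 bases after an annotated start, were found for 7 of the 10 genes. *Hsp90aa1*, *Hsp90ab1* and *Hspa8* had no window in the table. The bases before the start are printed 5′ to 3′ along the transcribed strand. Capitals mark heat shock unit pairs (GAANNTTC or TTCNNGAA), runs of 3 alternating units (GAANNTTCNNGAA and, on the other strand, TTCNNGAANNTTC, which contain both pairs and therefore overlap them) and, in *Hspa5*, the ER stress element (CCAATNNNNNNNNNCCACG), with all motifs searched on both strands.
Hspa1a, chr17:34972157-34972406, minus strand: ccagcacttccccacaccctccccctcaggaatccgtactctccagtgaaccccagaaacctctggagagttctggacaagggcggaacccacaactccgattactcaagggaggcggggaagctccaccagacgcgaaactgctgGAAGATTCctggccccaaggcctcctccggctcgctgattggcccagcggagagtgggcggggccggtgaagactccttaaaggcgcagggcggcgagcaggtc
Hspa1b, chr17:34959239-34959488, minus strand: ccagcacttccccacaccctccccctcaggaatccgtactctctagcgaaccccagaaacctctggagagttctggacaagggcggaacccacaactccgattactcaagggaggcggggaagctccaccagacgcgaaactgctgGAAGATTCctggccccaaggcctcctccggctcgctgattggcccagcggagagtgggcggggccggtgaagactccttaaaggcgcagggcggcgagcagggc
Hsph1, chr5:149636316-149636565, minus strand: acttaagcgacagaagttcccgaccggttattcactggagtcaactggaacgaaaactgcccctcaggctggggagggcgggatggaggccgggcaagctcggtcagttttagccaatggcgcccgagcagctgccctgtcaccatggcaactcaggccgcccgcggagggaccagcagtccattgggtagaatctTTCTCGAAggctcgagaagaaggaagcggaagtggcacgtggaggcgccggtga
Hspb1, chr5:135887669-135887918, plus strand: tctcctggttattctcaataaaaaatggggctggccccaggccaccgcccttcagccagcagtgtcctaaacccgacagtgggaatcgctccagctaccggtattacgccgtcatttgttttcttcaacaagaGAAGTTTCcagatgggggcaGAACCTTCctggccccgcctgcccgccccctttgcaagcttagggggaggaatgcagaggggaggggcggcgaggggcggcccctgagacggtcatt
Hspd1, chr1:55087933-55088182, minus strand: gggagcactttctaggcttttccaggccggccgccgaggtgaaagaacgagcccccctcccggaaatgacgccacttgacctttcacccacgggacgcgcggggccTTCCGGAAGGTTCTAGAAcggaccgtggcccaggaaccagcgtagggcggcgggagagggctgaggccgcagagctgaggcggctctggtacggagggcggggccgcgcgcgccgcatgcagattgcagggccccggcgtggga
Hspa5, chr2:34771840-34772089, plus strand: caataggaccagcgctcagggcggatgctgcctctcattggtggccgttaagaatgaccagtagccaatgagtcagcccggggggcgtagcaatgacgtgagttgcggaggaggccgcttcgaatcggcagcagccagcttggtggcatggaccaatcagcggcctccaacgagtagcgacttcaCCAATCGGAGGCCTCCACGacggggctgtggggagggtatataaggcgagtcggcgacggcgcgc

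The *Hspa1a* and *Hspa1b* windows differed at 3 of the 250 bases before the start and at 4 of 300 bases in all (98.7% identity). Each held 1 heat shock unit pair, at bases -104 to -97. *Hspb1* held 2 pairs, at -117 to -110 and -97 to -90. *Hsph1* held a pair at -54 to -47 and a run of 3 units, TTCTGGAAAGTTC, at +16 to +28 from the start whose window is printed. *Hspd1*, counted here as constitutive, held 4 alternating units that make 2 overlapping runs of 3, at -144 to -132 and -139 to -127, before 1 of its 2 annotated starts. *Hspa5* held the ER stress element at -65 to -47, and the letters of none of these motifs occurred in the *Dnajb1* windows. A pair of either kind occurred in 15.1% of the 32851 RefSeq windows (GAANNTTC in 7.86%, TTCNNGAA in 8.52%), a run of 3 in 0.603% and the ER stress element in 0.119%. These are matches of letters, and binding by any factor was not measured.

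**Figure D1:**
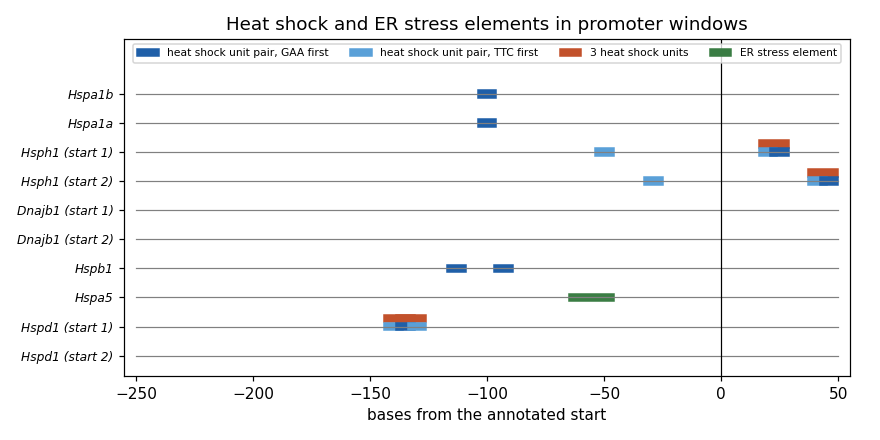
Position of heat shock unit pairs, runs of 3 units and ER stress elements in the RefSeq promoter windows of 7 member genes, in bases from the annotated start (vertical line), with 1 row for each of 10 windows. Runs of 3 units lie in *Hsph1* and in 1 of the 2 *Hspd1* windows, the *Hspa1a* and *Hspa1b* pairs lie at the same place, and *Dnajb1* has no match.

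Signal is given on the log2 scale relative to the 75th percentile of its array, so that 0 is the level below which 75% of spots fall. Each gene is represented by its brightest tested probe, and levels of different probes are not set against each other because probes differ in labelling and binding. Arrays of wild-type father replicate 1 and heterozygous father replicate 3 stood apart before scaling. Their 75th percentiles were 9.88 and 9.91 against 10.07 to 10.32 for the other 6 arrays on the log2 scale of raw signal, and their medians were 6.25 and 6.87 against 5.84 to 6.06. On the scaled values the mean deviation of all tested probes from the 8-array mean was 0.16 in the former, 0.29 in the latter and -0.17 to 0.02 in the others. Results on these embryos are therefore given under other scalings as well.

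Between the father groups, the heat shock and chaperone genes did not pass the test. Of the 12 member probes, 0 reached a limma adjusted p under 0.01 with a change of at least 2-fold, against 0% of the 33093 tested probes. The count at an unadjusted p under 0.05 was 0 of 12, against 4.35% of all tested probes, and the groups of 0 of 12 probes were free of overlap, against 3.16%. By gene, 4 were higher and 5 lower with heterozygous fathers, and by probe 6 were higher and 6 lower, where 49.9% of all tested probes were higher. The smallest adjusted p of any member was 0.9998. Median log2 differences were -0.01 for the 5 inducible genes, 0.02 for the 4 constitutive genes and 0.00 for all tested probes. The variation lay between embryos of the same group, above all in *Hspa1a*, whose log2 signal spanned 2.21 over the 6 arrays where it was well above background (1.78 under quantile normalization, 0.89 under normexp with quantile normalization).

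*Hspa1a* encodes the main stress-inducible cytosolic HSP70. Its probe (A_55_P2068459) gave -3.10, -5.32, -5.30 and -5.05 in embryos 1 to 4 of wild-type fathers and -4.28, -5.40, -3.29 and -5.07 in embryos 1 to 4 of heterozygous fathers. Wild-type father replicate 1 and heterozygous father replicate 3 were highest, heterozygous father replicate 1 came next, and the other 5 embryos lay close together, so that the groups overlapped. The probe was well above background on all 4 arrays of wild-type fathers and on 2 of 4 of heterozygous fathers, replicates 2 and 4 being the exceptions, and the low end of its values is therefore only loosely measured. Under the median shift, quantile normalization and normexp with quantile normalization, wild-type father replicate 1 was again highest, but heterozygous father replicate 1 was next and replicate 3 followed it. Group means were -4.69 ± 1.07 and -4.51 ± 0.94 (SD, n = 4 each), a log2 difference of 0.19 (limma SE 0.64, 95% interval -1.31 to 1.68). In fold terms the interval runs from 0.404 to 3.20, so that a 2-fold change in either direction was not excluded for this gene. The mean difference turned to -0.07 under normexp background correction with quantile normalization, and to -0.15 when embryos sharing the first part of their code were treated as a random block.

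*Hsph1* encodes HSP110, an exchange factor for HSP70 that also holds unfolded proteins. Its brightest probe (A_55_P2176963) gave 5.60, 5.04, 5.05 and 5.11 with wild-type fathers and 5.19, 4.96, 5.44 and 5.15 with heterozygous fathers. On this scale the same pair of embryos led as for *Hspa1a*. The pair also led under quantile normalization and normexp with quantile normalization, and under the median shift heterozygous father replicate 1 was highest. The group difference was -0.01 (SE 0.16, 95% interval -0.38 to 0.35). A second *Hsph1* probe gave 4.03, 3.36, 3.38 and 3.47 against 3.47, 3.30, 3.78 and 3.32, with the same 2 embryos highest, and a difference of -0.09 (SE 0.18).

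*Dnajb1* encodes HSP40, the J-domain partner that stimulates HSP70. Its probe (A_51_P153486) gave 5.19, 4.94, 4.86 and 4.93 with wild-type fathers and 4.96, 4.87, 4.93 and 4.96 with heterozygous fathers. Replicate 1 of wild-type fathers again stood above the rest, but heterozygous father replicate 3 lay in the middle of the others. The difference was -0.05 (SE 0.09, 95% interval -0.26 to 0.15).

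*Hspb1* encodes the small heat shock protein HSP27, which holds unfolding proteins without ATP. Its probe (A_55_P2039284) gave 3.84, 3.58, 3.61 and 3.45 with wild-type fathers and 3.85, 3.57, 3.82 and 3.52 with heterozygous fathers. Almost level at the top were replicate 1 of wild-type fathers and replicates 1 and 3 of heterozygous fathers. The difference was 0.07 (SE 0.12, 95% interval -0.21 to 0.34).

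*Hsp90aa1*, the inducible cytosolic HSP90, varied least of the inducible members. Its probe (A_55_P2057946) gave 6.87, 6.66, 6.67 and 6.78 with wild-type fathers and 6.64, 6.73, 6.76 and 6.77 with heterozygous fathers. All 8 embryos lay within a log2 range of 0.23, with wild-type father replicate 1 highest. The difference was -0.02 (SE 0.07, 95% interval -0.19 to 0.15).

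**Figure D2:**
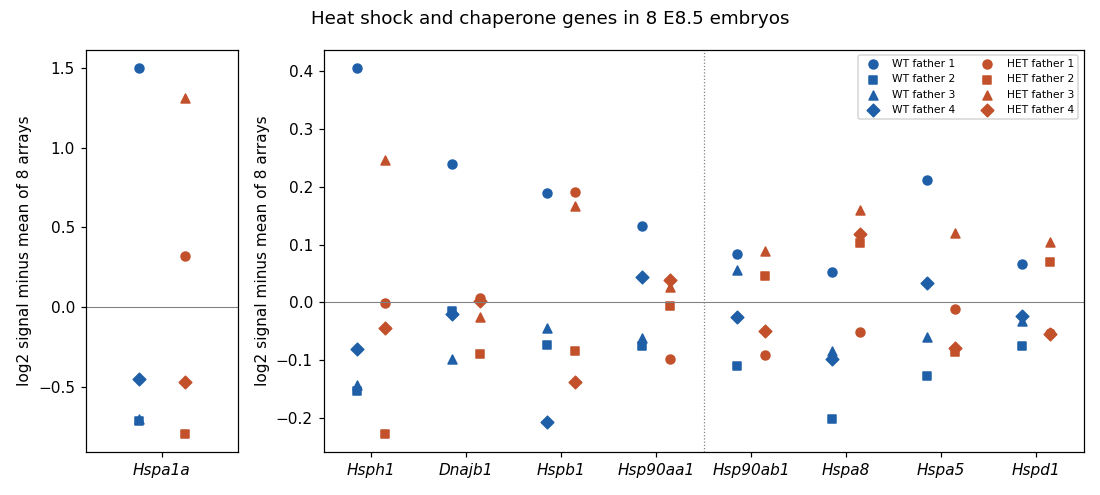
Log2 signal of each member gene in each embryo minus the mean of the 8 arrays, with wild-type fathers in blue, heterozygous fathers in orange and a marker shape for each replicate. *Hspa1a* has its own axis, and the dotted line separates inducible from constitutive genes. Wild-type father replicate 1 lies at the top for *Hspa1a*, *Hsph1*, *Dnajb1*, *Hsp90aa1* and *Hspa5*.

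Of the constitutive members, *Hsp90ab1* encodes the cytosolic HSP90 made without stress. Its probe (A_55_P2048434) gave 8.21, 8.01, 8.18 and 8.10 with wild-type fathers and 8.03, 8.17, 8.21 and 8.07 with heterozygous fathers. Highs and lows were shared evenly between the groups, and the difference was -0.00 (SE 0.08, 95% interval -0.18 to 0.17).

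*Hspa8* encodes HSC70, the constitutive cytosolic HSP70 that also uncoats clathrin vesicles. Its brightest probe (A_55_P2080603) gave 7.59, 7.33, 7.45 and 7.44 with wild-type fathers and 7.48, 7.64, 7.69 and 7.65 with heterozygous fathers. Of the 4 embryos of heterozygous fathers, 3 exceeded every embryo of wild-type fathers, and replicate 1 of each group broke the separation. The difference of 0.17 (SE 0.08, 95% interval -0.03 to 0.36) had the smallest unadjusted p among the members, 0.0800, with an adjusted p of 0.9998 from limma. The other *Hspa8* probes differed by 0.10 (SE 0.10) and 0.18 (SE 0.28). The latter probe (A_52_P12877) gave 5.25, 4.86, 5.38 and 4.60 against 5.57, 5.63, 4.53 and 5.08, a pattern across embryos that the brightest probe did not share, and its log2 range of 1.09 compares with 0.36 for each of the other 2.

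*Hspa5* encodes BiP, the HSP70 of the ER and the classic target of the unfolded protein response. Its probe (A_55_P2076772) gave 6.99, 6.65, 6.72 and 6.81 with wild-type fathers and 6.77, 6.69, 6.90 and 6.70 with heterozygous fathers. The highest were wild-type father replicate 1 and heterozygous father replicate 3, also under quantile normalization and, in the other order, normexp with quantile normalization, whereas heterozygous father replicate 1 was highest under the median shift. The difference was -0.03 (SE 0.10, 95% interval -0.25 to 0.19).

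*Hspd1* encodes mitochondrial HSP60. Its probe (A_55_P1955587) gave 7.42, 7.28, 7.32 and 7.33 with wild-type fathers and 7.30, 7.43, 7.46 and 7.30 with heterozygous fathers. The 8 embryos spanned a log2 range of 0.18, the narrowest of all members, and the difference was 0.03 (SE 0.07, 95% interval -0.13 to 0.20). The probe annotated in the study as a retroposed copy of *Hspd1* (A_30_P01019724) was at -3.20 ± 0.22 with wild-type fathers and -3.45 ± 0.37 with heterozygous fathers (SD, n = 4 each), a difference of -0.26 (SE 0.20, limma adjusted p = 0.9998).

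**Figure D3:**
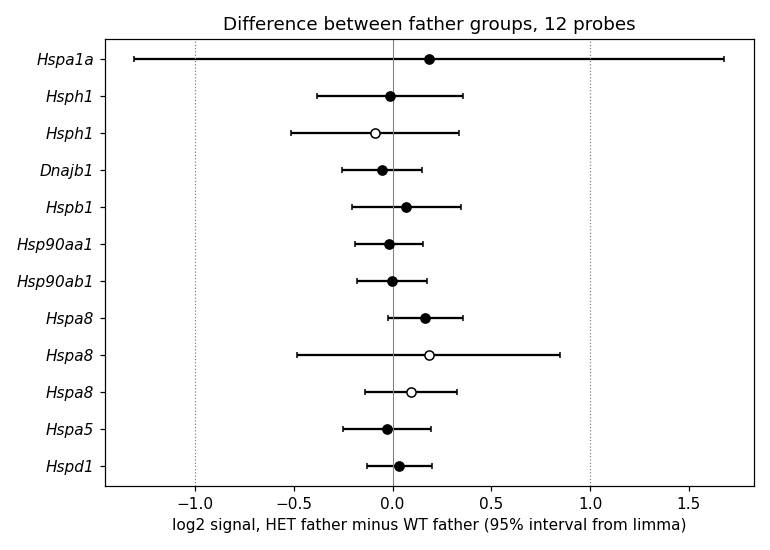
Log2 difference, heterozygous minus wild-type fathers, with its 95% limma interval, for the 12 member probes. Filled points are the brightest probe of a gene, open points its other probes, and dotted lines mark 2-fold. Every interval includes 0, and the *Hspa1a* interval alone crosses both dotted lines.

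By the brightest probe of each gene, the spread between embryos of a group was largest for *Hspa1a*, followed by *Hsph1*. The residual SD of *Hspa1a* within father groups was 1.00 on the log2 scale, larger than that of 93.2% of tested probes (86.0% under quantile normalization). For *Hsph1* it was 0.234, larger than 53.9% of probes, and for *Hspb1* 0.167, larger than 39.2%. The other 6 genes lay between 0.0724 (*Hspd1*, larger than 7.16% of probes) and 0.124 (*Hspa5*, 25.6%). By these probes, 7 of 9 members had a residual SD below the median of all tested probes. The tested probes were not matched for signal in these ranks, and the part of brightness in them was not tested. Other probes of the same genes could differ. The *Hspa8* probe A_52_P12877 had 0.441, larger than 76.9% of probes, and the remaining *Hspa8* probe 0.134 (28.8%). The second *Hsph1* probe had 0.274 (60.5%). The *Hspa1a* probe was not well above background on 2 of the 8 arrays, and the part of low signal in its spread was not tested.

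**Figure D4:**
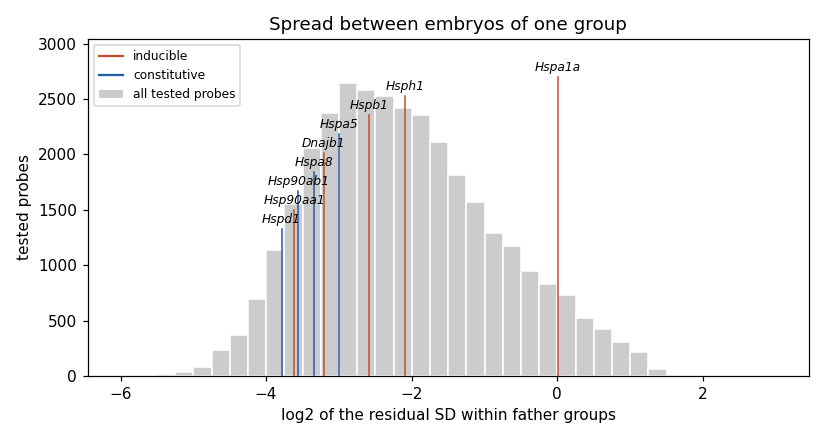
Histogram of the residual SD within father groups of all 33093 tested probes (horizontal axis, log2 of the SD, vertical axis, number of probes), with lines at the 5 inducible and 4 constitutive genes (line heights are only for legibility). *Hspa1a* lies in the right tail, above 93.2% of probes, and *Hspd1* toward the left, above 7.16%.

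The highest of the 8 embryos was wild-type father replicate 1 for 5 of the 9 genes, namely *Hspa1a*, *Hsph1*, *Dnajb1*, *Hsp90aa1* and *Hspa5*. It was highest for 14.8% of all tested probes. Under quantile normalization, which equalises the distribution of signal across arrays, it was again highest for 5 of the 9 genes, against 12% of probes. Heterozygous father replicate 3 was highest for 3 of the 9 genes (*Hsp90ab1*, *Hspa8* and *Hspd1*, all constitutive), where it led for 34.5% of all probes. Under quantile normalization it was highest for 1 of the 9, against 18.7% of probes. The count for wild-type father replicate 1 was the same under both of these scalings, and that for heterozygous father replicate 3 was not. Under the median shift, however, wild-type father replicate 1 was highest for *Hspa1a* only. There heterozygous father replicate 1 led for *Hsph1*, *Dnajb1* and *Hspa5*, and another embryo of heterozygous fathers led for *Hsp90aa1*.

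Inducible and constitutive members were then set against each other within each embryo, because any single shift of an array cancels in their difference. The mean deviation of the 5 inducible genes was 0.49, -0.21, -0.21 and -0.14 with wild-type fathers and 0.08, -0.24, 0.34 and -0.12 with heterozygous fathers. Shifting arrays by their median in place of the 75th percentile turned heterozygous father replicate 3 to -0.63 and lowered wild-type father replicate 1 to 0.11. The 4 constitutive genes deviated by 0.10 in wild-type father replicate 1 and by -0.13 to 0.12 in the other embryos. Inducible minus constitutive was 0.39, -0.08, -0.18 and -0.11 with wild-type fathers, and 0.14, -0.27, 0.23 and -0.11 with heterozygous fathers. Each group had an embryo of its own at the top, replicate 1 of wild-type and replicate 3 of heterozygous fathers, and the group means were 0.00 ± 0.26 and -0.00 ± 0.23 (SD, n = 4 each).

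The contrast shrank when *Hspa1a* was left out, to 0.14 in wild-type father replicate 1 and to -0.02 in the third embryo of heterozygous fathers. With *Hspa1a* and under quantile normalization these embryos had 0.39 and 0.04, and under normexp with quantile normalization 0.29 and 0.00. Without *Hspa1a*, wild-type father replicate 1 kept 0.19 and 0.20 under these scalings and was the highest embryo under both. Markers of blood cells differed between the embryos as well. The mean deviation of the 8 primitive erythroid markers was 0.40 in it, -0.98 in wild-type father replicate 4 and -0.05 to 0.36 in the others. The 6 yolk sac endoderm markers deviated by 0.26 in wild-type father replicate 1 and by -0.32 to 0.22 in the others, and the part of cell makeup in the chaperone values was not tested. In whole embryos, more cells of a type and more RNA per cell cannot be told apart.

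**Figure D5:**
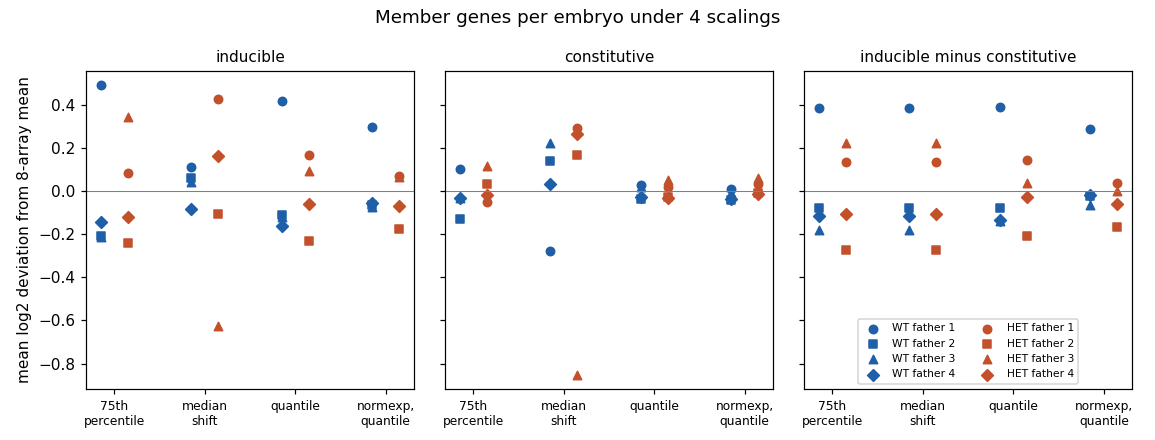
Mean log2 deviation from the 8-array mean over the 5 inducible genes, over the 4 constitutive genes, and their difference, for each embryo under 4 scalings (colours and shapes by father group and replicate). Wild-type father replicate 1 is highest in the right panel under all 4 scalings, from 0.29 to 0.39, while heterozygous father replicate 3 moves from 0.23 to 0.00. In that panel the 75th percentile and the median shift give the same values by construction, because a shift of an array cancels.

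Genes most like *Hspa1a* were ranked by Pearson correlation over the 8 embryos after centring each father group, as a description with no test. Among 15376 genes *Hsph1* ranked first (r = 0.98), followed by *Pdzd2* (0.98), *Dusp11* (0.97), *Dus4l* (0.97) and *P2ry10b* (0.97). *Hspa5* ranked 31 (0.94), while *Hspb1* had 0.84, *Dnajb1* 0.77 and the remaining members 0.49 to 0.61. A further r was taken over the 6 embryos without wild-type father replicate 1 and heterozygous father replicate 3. The father groups were not centred there, so that it is a different measure from the r over 8 embryos. It was 0.84 for *Hsph1*, 0.56 for *Pdzd2*, 0.79 for *Dusp11*, 0.95 for *Dus4l* and 0.75 for *P2ry10b*. Among the members it was 0.55 for *Hspa5*, 0.73 for *Hspb1* and 0.64 for *Dnajb1*. For *Hsp90ab1*, *Hspd1*, *Hsp90aa1* and *Hspa8* it lay between -0.52 and -0.02. Over all 8 embryos with the groups centred, 128 genes had an r of at least 0.9 (0.832% of those compared). Under quantile normalization the number was 28, and *Dnajb1* had 0.96, *Hsph1* 0.85 and *P2ry10b* -0.01. All points share the scaling of their array, which enters every such correlation.

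No member passed the test between female and male embryos. By the cut-off used for the fathers, 0 of 12 member probes were called in the limma fit with father group and sex, where 11 of 33093 (0.0332%) were called in all. At an unadjusted p under 0.05 the members again numbered 0, against 3.27% of all tested probes, and 1 member probe reached it without heterozygous father replicate 1 and 1 with a random block for the embryo code. The largest female minus male difference was 0.44 (SE 0.25, limma adjusted p = 0.9999) at the third *Hspa8* probe, with means of 5.33 and 4.89. For father by sex, *Hspb1* was the 1 member at an unadjusted p under 0.05 (0.0296, against 2.22% of all probes), with an adjusted p of 0.9956. Its males read 3.58 and 3.45 with wild-type and 3.85 and 3.82 with heterozygous fathers, and its females 3.84 and 3.61 against 3.57 and 3.52. With 2 embryos in each cell the interaction of -0.50 (females minus males) did not pass the correction.

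The wider chaperone network was taken as 90 genes in 8 lists, and none of its genes passed the test. Of these, 89 had a probe and 88 were tested, 0 were called, and 51 were above 0 (58.0%, against 49.9% of all tested probes) with a median log2 difference of 0.02. At the weaker threshold, 1 gene had an unadjusted p under 0.05 (1.14%, against 4.35%), and the groups of 3 were free of overlap (3.41%, against 3.16%). The former was *Hspa12a*, a divergent HSP70 relative, which gave -4.29, -6.50, -5.64 and -6.01 with wild-type and -3.63, -4.35, -3.64 and -4.43 with heterozygous fathers. Only wild-type father replicate 1 reached into the other group, and the difference was 1.60 (SE 0.47, limma adjusted p = 0.9998) with the probe well above background on 5 of 8 arrays. The 3 genes without overlap were the HSP70 exchange factor *Bag1* (0.11), the HSP90 kinase co-chaperone *Cdc37* (0.13) and the HSP70-interacting protein *St13* (-0.12), of which *Bag1* and *St13* are named after their values were seen.

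The lists are given by role, with limma adjusted p of 0.9998 or above for all of their genes. Among the regulators, 1 of 4 was above 0 (median -0.09), with *Hsf1*, the heat shock activator, at 0.08, *Hsf2*, active in development and gametogenesis, at -0.11, and *Hsf4*, the lens factor, at -0.27 from a probe above background on 4 arrays. Of 8 further HSF1-responsive genes, 3 were above 0 (median -0.01), with *Serpinh1*, the collagen chaperone, at 0.17. Of 16 tested HSP70 system genes, 11 were above 0 (median 0.07), with *Dnaja4*, a J-domain protein, at 0.19 and the exchange factor *Hspbp1* at 0.16. HSP90 co-chaperones were above 0 in 9 of 10 (median 0.04, highest *Cdc37*), a narrow range from -0.01 to 0.13. The median of all tested probes itself moved to -0.10 under the median shift and to -0.04 under quantile normalization.

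Small heat shock proteins were above 0 in 2 of 8 (median -0.09), from -0.73 for the lens crystallin *Cryaa* to 0.36 for *Hspb8*, the BAG3 partner in selective autophagy. ER chaperones and unfolded protein response genes were above 0 in 12 of 19 (median 0.02), from -0.24 for the disulphide isomerase *Pdia3* to 0.30 for the lectin chaperone *Calr*. Mitochondrial chaperones and proteases were above 0 in 5 of 9 (median 0.02), with the inner membrane protease *Afg3l2* at 0.13 and *Hspe1*, the HSP10 lid of the HSP60 barrel, at 0.10 beside *Hspd1* at 0.03. The cytosolic TRiC ring and prefoldin were above 0 in 8 of 14 (median 0.01), from -0.13 for *Tcp1* to 0.13 for *Cct2*. Wild-type father replicate 1 was highest for 19 of the 88 network genes (21.6%, against 14.8% of all tested probes). Heterozygous father replicate 3 was highest for 26 (29.5%, against 34.5%).

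Other stress and cell markers are given for comparison. Of 10 immediate early genes, which respond within minutes to handling or growth factors, 7 were above 0 (median 0.05) and *Dusp1* alone had an unadjusted p under 0.05 (-0.24, adjusted p = 0.9998 from limma). Of 8 hypoxia response genes, 3 were above 0 (median -0.04). In wild-type father replicate 1 the mean deviation of the immediate early list was 0.09 (-0.12 under quantile normalization) and that of the hypoxia list -0.08 (-0.10). The inducible chaperones had 0.49 (0.42) there, or 0.24 (0.22) without *Hspa1a*. The 8 further HSF1-responsive genes had 0.11 (0.07) and all tested probes 0.16 (-0.01). The regulators had 0.29 (0.11) in the same embryo and 0.56 (0.21) in heterozygous father replicate 3. In these embryos *Hsf4*, above background on 4 arrays, read -4.54 and -3.53, against -7.19 to -5.32 in the others. *Hsf1* read 2.60 and 2.75 against 2.52 to 2.69, and *Hsf2* 1.87 and 1.96 against 1.37 to 1.87. *Hsbp1* read 3.42 and 3.25 against 3.34 to 3.54. The decidua and trophoblast markers, a mean of 2 tested genes, had 1.09 (1.22) in wild-type father replicate 1. In the other embryos of wild-type fathers they had 0.49 to 0.93. With heterozygous fathers these markers had 0.11, -0.29, -3.06 and -0.13. All 9 embryo proper, 8 heart, 6 yolk sac endoderm and 8 primitive erythroid markers were well above background on all 8 arrays, in tissue labelled as embryo. Their medians were 0.01, 0.02, 0.00 and 0.20, with 5 of 9, 6 of 8, 3 of 6 and 8 of 8 above 0. The erythroid markers were lowest in wild-type father replicate 4, at a mean deviation of -0.98. *Pax3* at -0.22 (adjusted p = 0.9998 from limma) was the 1 gene of these lists at an unadjusted p under 0.05. Of 5 decidua and trophoblast markers with a probe, 2 were tested and both were lower with heterozygous fathers. *Prl3d1* gave 0.73, -0.68, 0.825 and -0.81 with wild-type and 0.03, -0.35, -2.99 and -0.27 with heterozygous fathers. Its groups overlapped, with a difference of -0.91 (SE 0.75). *Prl8a2* gave 1.99, 2.92, 1.56 and 2.32 with wild-type and 0.72, 0.30, -2.61 and 0.54 with heterozygous fathers, without overlap (-2.46, SE 0.75, adjusted p = 0.9998 from limma), and its part in the chaperone values was not tested.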

How the data were processed

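Total RNA of 8 single embryos was labelled with Cy3 and hybridised to 1 array each. The authors extracted the deposited intensity values with Agilent Feature Extraction (version 11.0.1.1), which subtracts background and spatial trends and leaves arrays unscaled. Here each log2 intensity was expressed relative to the 75th percentile of its array, after removal of control spots and flagged spots and averaging of repeated spots. Tests covered the probes that exceeded background clearly on 4 or more arrays and lay outside the dimmest 20%. Father groups were compared by limma (version 3.58.1, R 4.3.3) over all 33093 such probes, with Benjamini-Hochberg adjustment and a cut-off of adjusted p under 0.01 and 2-fold. RefSeq (GRCm38.p6) gave the promoter windows and the symbols of 27235 of 28685 probes with a transcript accession. A deposited table of the whole series, also an intensity per spot, served as an alternative, with 0 columns of samples unused. The authors' methods name a percentile shift and no test.

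The members, lists and tests were chosen with earlier results of these data known. Named genes were all members, genes among the 3 largest changes of a network or stress list, the 5 genes most like *Hspa1a* and a retroposed *Hspd1* copy. *Bag1*, *St13*, *Hsbp1*, *Pax3*, *Prl3d1* and *Prl8a2* were named after their values were seen. The fit was tested on simulated data. The alternatives were other background correction (normexp, offset 50), scalings, filters, covariates, blocks, array weights, moderation and probe choice, and the removal of embryos. The number of arrays limits precision.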

Additional observations from a re-analysis of the deposited data

Results flagged for a closer look

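Of 30 groups of 4 embryos examined for a single sample far from the other 3, 5 stood out, where chance gives about 1 in 20 (1.5). The gap to the nearest other embryo was divided by the range of the group and compared with Dixon's limit of 0.829. In embryos of wild-type fathers, *Hspa1a* gave 0.881, with replicate 1 at -3.10 and the others between -5.32 and -5.05. *Hsph1* gave 0.869 in the same group, with replicate 1 at 5.60 and the others between 5.04 and 5.11. The mean deviation of the inducible genes gave 0.905, again through replicate 1 at 0.49 against -0.21 to -0.14, and this value contains the 2 genes before it. In embryos of heterozygous fathers, the median log2 signal of the array gave 0.893, with replicate 3 at 6.87 and the others between 5.84 and 5.95. The median local background gave 0.981, with replicate 4 at 133 raw units and the others between 30 and 32.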

How the results depend on the processing

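Under every alternative the number of member probes called was 0, for father and for sex. Among all tested probes the count of 0 became 1 without wild-type father replicate 1, without heterozygous father replicate 4, and without wild-type father replicate 1 and heterozygous father replicate 3 together, so that it ran from 0 to 1 over embryos left out. It was 1440 at an unadjusted p under 0.05 and 113 with 2-fold as well. Over the same probes the former count was 478 under the median shift, 685 with a random block for the embryo code, 2626 under normexp, 3043 with array weights and 3099 without heterozygous father replicate 3. The brightest *Hspa8* probe was the 1 member probe that reached an unadjusted p under 0.05 under quantile normalization, array weights, trended and robust moderation, and without replicate 1 of either group, with adjusted p of 0.513 or above. The mean of *Hspa1a* reversed to -0.069 under normexp, -0.0011 under quantile normalization and -0.15 with a random block for the embryo code. *Hspa5* became 0.058 under normexp, *Hspb1* -0.034 and *Hspd1* -0.069 under the median shift, and *Hsp90aa1* 0.013 and *Hsp90ab1* 0.019 with array weights. The constitutive median became -0.087 under the median shift. Without wild-type father replicate 1 and heterozygous father replicate 3, *Hsph1* had 0.035, *Dnajb1* 0.018 and *Hsp90aa1* 0.0091. With each embryo left out, *Hspa1a* ran from -0.22 (without heterozygous father replicate 3) to 0.72, *Hsph1* from -0.098 to 0.12, *Dnajb1* from -0.094 to 0.018, *Hsp90aa1* from -0.048 to 0.021, *Hsp90ab1* from -0.039 to 0.028 and *Hspa5* from -0.076 to 0.037, the highest values, except that of *Hsp90ab1*, coming without wild-type father replicate 1. The group difference of inducible minus constitutive ran from -0.085 to 0.12. The cause was not tested. Of all values recomputed, 24 reversed and 6 moved. The other 289 kept their side of the threshold or moved by less than the spread between replicates, and 13 of these, means or medians with no test, changed sign. Normexp on the mean spot signal was not run.

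Same-numbered embryos correlated at -0.55, -0.05, -0.59 and -0.15 in their deviations from the group means, for replicates 1 to 4. Replicates 1 and 3 hold the arrays that stood apart before scaling. These values therefore cannot decide whether replicate numbers pair the embryos. With the replicate number as a block, 0 member probes were called and 874 of all tested probes had an unadjusted p under 0.05, against 1440.

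*Hspa1a* was above background on 6 of 8 arrays. Its interval spans more than 2-fold either way, so that a change of that size was not excluded. The intervals of the other members lay within 2-fold.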
